A study of Mus musculus with 2 samples.

Results

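Genes whose products drive the movement of newborn cortical neurons, 10 in number, were followed in single-nucleus RNA data from mouse embryonic neocortex. They were taken by symbol from a table of 33938 genes, where each stood on 1 line. They are the doublecortins Dcx and Dclk1, the Lis1 complex genes Pafah1b1, Nde1 and Ndel1, the tubulin genes Tubb2b, Tubb3 and Tuba1a, and the atypical small GTPase genes Rnd2 and Rnd3. The study, by its title, asks how menin, the product of Men1, acts in cortical development. Neocortices were dissected from embryonic brains of mice described as timed and male, and their nuclei were sequenced with the 10x Genomics 3′ chemistry. Of the 2 libraries, 1 is labelled MEN1-F/F by genotype and 1 MEN1-NCKO. The labels do not say what NCKO stands for, which Cre line or which part of Men1 is meant, or how old and how many the embryos were, and they name no other allele or agent. Since neither genotype was sequenced more than once, nothing was tested, and each value is set beside its counterpart.

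A neuron born near the ventricle becomes bipolar, takes hold of the radial glial fibre and pulls its nucleus towards the pial surface. Microtubules built from alpha- and beta-tubulin form the cage and rails of that movement. Doublecortins bind and stabilise those microtubules, and the dynein motor, regulated by Lis1 with Nde1 or Ndel1, draws the centrosome and nucleus forward. Rnd proteins loosen the actin cortex at defined steps of the journey. Mutations of DCX, PAFAH1B1 (the gene of Lis1) and several of these tubulin genes cause lissencephaly or related malformations in people.

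On GRCm38 in GENCODE M21, Dcx (ENSMUSG00000031285) lies at chrX:143855842-143933311 on the minus strand and spans 77.5 kb, and Dclk1 (ENSMUSG00000027797) lies at chr3:55242364-55539068 on the plus strand and spans 297 kb. Pafah1b1 (ENSMUSG00000020745) lies at chr11:74673949-74724670 on the minus strand, Nde1 (ENSMUSG00000022678) at chr16:14163275-14192928 on the plus strand and Ndel1 (ENSMUSG00000018736) at chr11:68821434-68871858 on the minus strand. The tubulin genes are compact. Tubb2b (ENSMUSG00000045136) occupies chr13:34126748-34130466 on the minus strand, Tubb3 (ENSMUSG00000062380) chr8:123411424-123422015 on the plus strand and Tuba1a (ENSMUSG00000072235) chr15:98949837-98953703 on the minus strand, with spans of 3.72, 10.6 and 3.87 kb. Rnd2 (ENSMUSG00000001313) occupies chr11:101464999-101471853 on the plus strand and Rnd3 (ENSMUSG00000017144) chr2:51130438-51149111 on the minus strand.

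Start-site sequences are shown for the members with a TATA motif on the strand of the gene and for Nde1, the member with the widest span between classes. RefSeq start windows of GRCm38.p6 were at hand for 8 of the 10 genes, and the 250 bases before each start were searched on both strands for the TATA motif (TATAA), the CAAT-box motif (CCAAT) and a pair of E-boxes. The first E-box was spelled CAGCTG and the other was spelled CATCTG, and no motif contains another. The capitals mark the motif in each 30-base stretch, written 5′ to 3′ on the strand of the gene.
Tubb3, chr8:123411511-123411540, plus: ggggcagcctctTATAAgagggcgcggcgg
Rnd3, chr2:51149122-51149151, minus: gaaggctgggcgTATAAagcggcgcggaga
Tuba1a, chr15:98953562-98953591, minus: gacagagctgtaTATAAggagccgcatccg
Dcx, chrX:143933300-143933329, minus, first of 2 windows: tttcctgtgcgtTATAAacgaaacctttct
Nde1, chr16:14163226-14163255, plus, with CCAAT on the opposite strand: ttctttgcgctgATTGGccgagtcagacgc
Distances are from the RefSeq starts, which differ from the outer GENCODE ends given above, so some stretches lie inside the GENCODE gene. TATAA began 30 bases before the start in Tubb3, 28 in Rnd3, 78 in Tuba1a and 98 in Dcx. It was present on the gene's strand in 4 of the 8 genes and on either strand in 5, against 16.0% and 22.8% of all 32851 windows. Genes are counted if any of their windows matches (10 windows for the 8 genes), whereas the shares here and below are per window. Of all windows, 2.97% had TATAA on the gene's strand within 35 to 20 bases before the start. CCAAT was found on either strand in 6 of the 8 genes and in 33.8% of all windows. CATCTG was found in Rnd3 alone, against 14.4% of all windows on either strand, and CAGCTG in none of the 8, against 13.0%. A match to these letters is a description of the window and not a measured binding site.

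The files held 6477 barcodes in the library labelled F/F and 10750 in the library labelled NCKO, with 30116311 and 50115162 unique molecular identifiers (UMIs, 1 per captured RNA molecule). After filtering and doublet removal 6130 and 9807 nuclei were kept, with medians of 3663.5 and 3578 UMIs, and 15 barcode sequences occurred in both libraries. The nuclei were clustered without the 10 genes or any of the 64 other listed cytoskeleton genes, and clusters were named from marker genes, which gave 38 named clusters of 54. The lineage is followed in 6 classes, from progenitor to settled excitatory neuron: radial glia-like (151 nuclei in F/F, 322 in NCKO), intermediate progenitor-like (274 and 252), migrating excitatory neuron-like (642 and 763), upper-layer neuron-like (1350 and 1774), layer 5 neuron-like (229 and 616) and layer 6 neuron-like (685 and 1065). In each library 7 of 8 intermediate progenitor markers and all 8 layer 6 markers were at least 1.5-fold above the other nuclei, and 6 of 8 in F/F and 7 of 8 in NCKO for the migrating class. For the upper-layer class it was 11 of 11 in F/F but 8 of 11 in NCKO, where Cux1, Cux2 and Pou3f2 fell short. Layer 5 markers were raised 5 of 8 in each library. Radial glia markers were raised 11 of 13 and 12 of 13, although these clusters, apart from the cycling one, scored nearly as high for astrocyte markers. Levels are in CPM, the UMIs of a gene in a class after scaling all UMIs of that class and library to a total of 1000000, with exact Poisson 95% intervals that cover counting error only.

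Men1, the gene the labels name, was not lower in the library labelled NCKO over all nuclei but higher. It had 280 UMIs (10.5 CPM) in F/F and 560 (13.5 CPM) in NCKO, and NCKO over F/F gave 1.29 (interval 1.12 to 1.49). In radial glia-like nuclei it was lower in NCKO, with 13 against 6 UMIs and a ratio of 0.232 (0.0723 to 0.654), while in upper-layer-like nuclei the ratio was 1.43 (1.07 to 1.93). Reads at the 3′ end check a deletion only if it removes that end, so the 2 libraries are called by their labels. Epha4, named in the study's title, was at 252 CPM in F/F and 158 in NCKO over all nuclei.

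Dcx marks the onset of neuronal migration, and among the 2 doublecortins and 3 tubulins it had the widest span between progenitor and neuron. Radial glia-like nuclei held 14 UMIs in F/F (33.7 CPM, interval 18.4 to 56.5) and 57 in NCKO (69.0, 52.3 to 89.4). In intermediate progenitor-like nuclei Dcx stood at 269 CPM (231 to 312) and 319 CPM (276 to 367), 7.99-fold (4.64 to 14.9) and 4.63-fold (3.43 to 6.33) above radial glia-like nuclei in the same library. The highest level of the 6 classes was in the migrating class in both libraries. There Dcx reached 382 CPM (355 to 410) in F/F and 406 CPM (379 to 434) in NCKO, 1.42-fold (1.2 to 1.68) and 1.27-fold (1.09 to 1.49) above the intermediate progenitor class. Settled neurons were lower: upper-layer-like nuclei had 241 CPM (229 to 253) and 250 CPM (239 to 261), layer 5-like 246 and 267 CPM, and layer 6-like 207 and 257 CPM. The upper-layer level was 0.631 (0.578 to 0.689) and 0.615 (0.568 to 0.667) of the migrating level. The layer 5-like class could not be set apart from the upper-layer-like class within the counting intervals in either library.

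**Figure D1:**
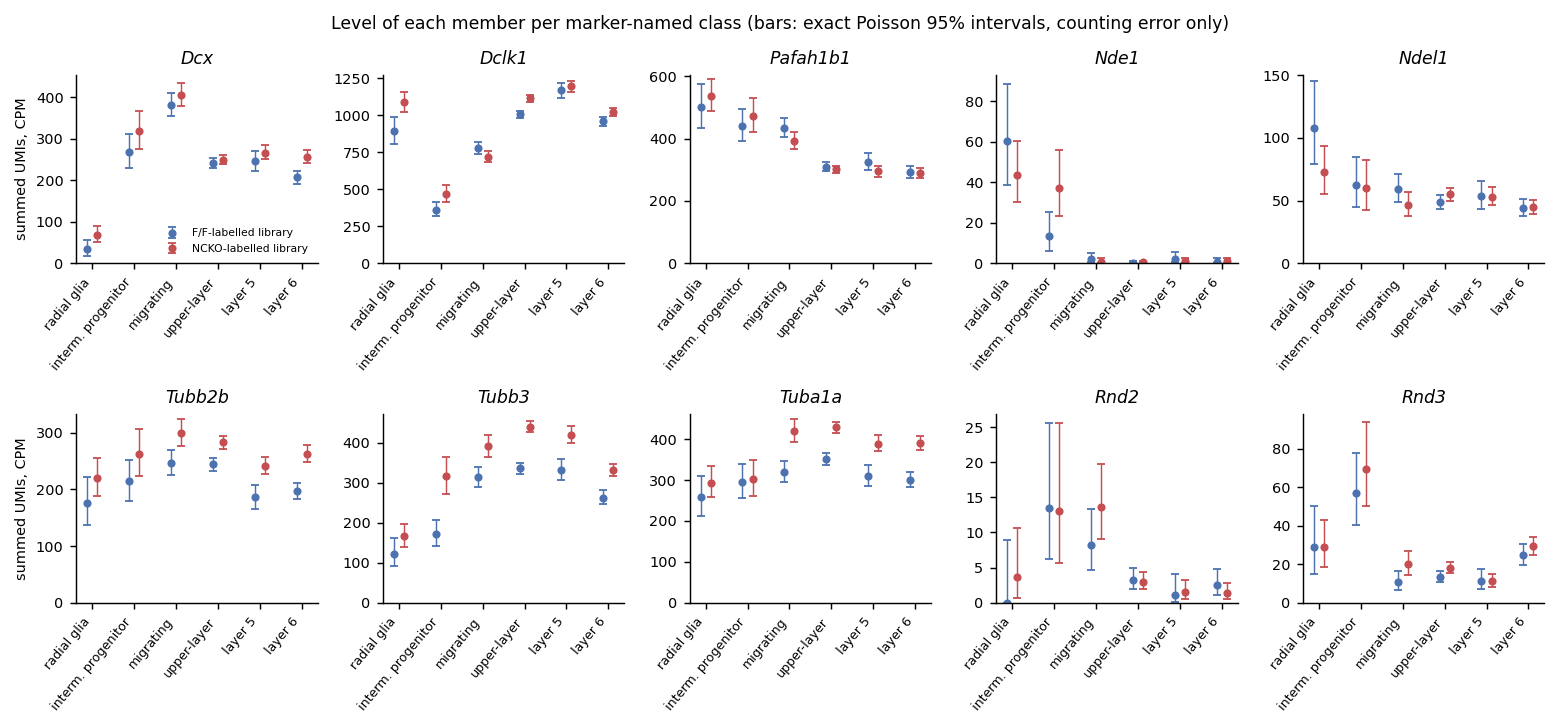
Level of each of the 10 genes (CPM of summed UMIs, linear axis from 0) in the 6 classes from radial glia-like to layer 6 neuron-like, blue for the library labelled F/F and red for NCKO, with exact Poisson 95% intervals for counting error. Dcx is highest in the migrating class (382 and 406 CPM), Nde1 in radial glia-like nuclei (60.2 and 43.6 CPM) and Rnd3 in intermediate progenitor-like nuclei (56.9 and 69.7 CPM).

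Inside the progenitor classes the Dcx level differed between clusters. The intermediate progenitor-like cluster 38 had 68 CPM in F/F and 152 in NCKO, while clusters 46 and 45 had 355 and 458 CPM, and 386 and 656 CPM. The migrating clusters 18 and 1 followed with 444 and 541 CPM, and 365 and 366 CPM. Dcx was also high in classes of the inhibitory lineage, whose neurons migrate tangentially. It had 454 CPM (427 to 482) and 422 CPM (402 to 443) in nuclei like those of the medial ganglionic eminence (MGE), the source of many cortical interneurons. Nuclei like those of the caudal eminence (CGE) had 381 and 525 CPM. The CGE class held dividing nuclei too, with the cell cycle marker Top2a at 152 and 148 CPM against 1.25 and 2.05 CPM in the MGE class.

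Dclk1, the doublecortin-like kinase, followed another course. It was high in radial glia-like nuclei, at 893 CPM (805 to 989) in F/F and 1090 CPM (1020 to 1160) in NCKO. The intermediate progenitor class was the lowest of the 6, at 364 CPM (319 to 412) and 470 CPM (418 to 528), a level 0.407 (0.345 to 0.48) and 0.432 (0.377 to 0.493) of that in radial glia-like nuclei. Migrating nuclei had 777 and 718 CPM and the upper-layer class 1010 and 1120 CPM, and the highest level, 1170 CPM (1120 to 1220) and 1200 CPM (1160 to 1230), was in the layer 5 class. Thus Dcx and Dclk1 were apart at both ends of the lineage: Dclk1 was above its intermediate progenitor level in radial glia-like nuclei, where Dcx was lowest, and above its migrating level in settled neurons, where Dcx was below. Single clusters showed the low point in steps. Dclk1 was at 990 and 1340 CPM in radial glia-like cluster 12, at 481 and 732 CPM in intermediate progenitor cluster 38, at 172 and 175 CPM in cluster 46, at 449 and 478 CPM in migrating cluster 18, and at 803 and 739 CPM in migrating cluster 1. An antisense gene covers 25666 bases of Dclk1 on the opposite strand and held 7297 UMIs of its own. Since the strand setting of the counting is not given, reads of the 2 genes may be mixed.

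**Figure D2:**
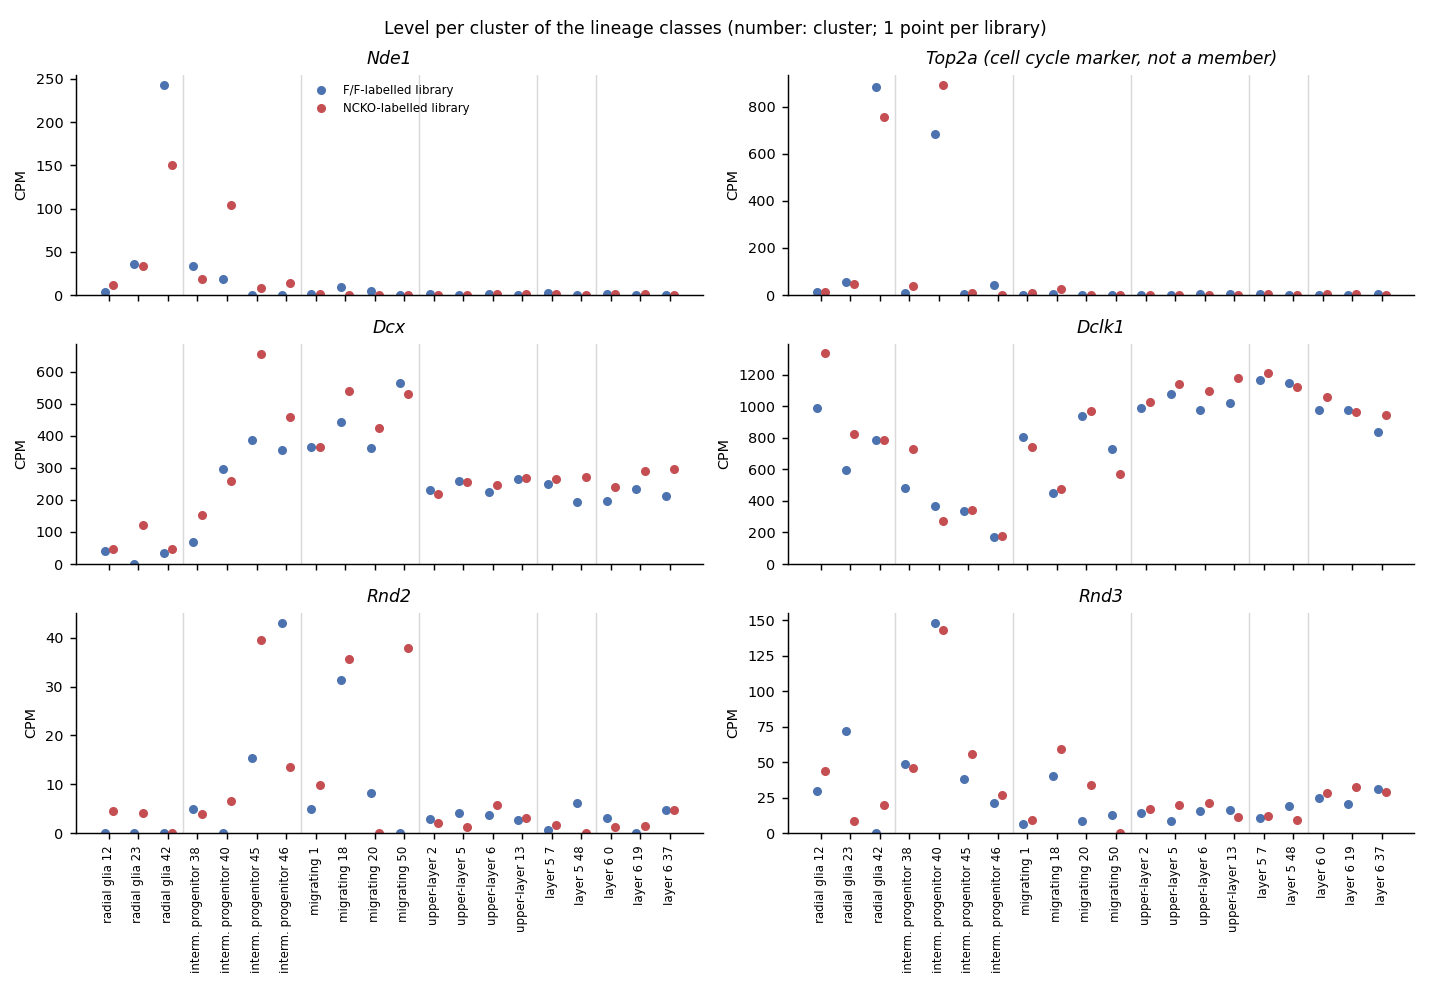
Level (CPM, linear axis from 0) in every cluster of the 6 classes, ordered by class along the horizontal axis, 1 point per library, for Nde1, Dcx, Dclk1, Rnd2 and Rnd3 and for the cell cycle marker Top2a. Nde1 peaks in the cycling radial glia-like cluster 42 (243 and 150 CPM), where Top2a is high too, and Dclk1 is lowest in intermediate progenitor cluster 46 (172 and 175 CPM).

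The Lis1 complex was measured through its core subunit and its paired cofactors. Pafah1b1, which encodes Lis1, had a narrow range along the lineage and was highest in progenitors. It was at 501 CPM (435 to 574) and 536 CPM (487 to 589) in radial glia-like nuclei, 441 and 473 CPM in the intermediate progenitor class, and 435 and 392 CPM in the migrating class. The upper-layer class had 310 CPM (297 to 324) and 301 CPM (289 to 313), and layer 5 and layer 6 lay between 289 and 325 CPM in the 2 libraries. The step from migrating to upper-layer nuclei was 0.714 (0.658 to 0.774) in F/F and 0.767 (0.709 to 0.832) in NCKO, whereas radial glia-like and intermediate progenitor-like nuclei could not be told apart within counting error.

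Nde1, a Lis1 partner with a known role at the mitotic spindle and in the interkinetic movement of progenitor nuclei, was counted in few molecules, 93 in F/F and 164 in NCKO over all nuclei, and of the 6 classes it was highest in progenitors. It had 25 UMIs (60.2 CPM, 38.9 to 88.8) and 36 UMIs (43.6 CPM, 30.5 to 60.3) in radial glia-like nuclei, and 9 and 23 UMIs (13.5 and 37.3 CPM) in the intermediate progenitor class. Migrating nuclei held 4 and 1 UMIs, and upper-layer-like nuclei 3 and 5. The migrating level was 0.0339 (0.00858 to 0.0983) of the radial glia-like level in F/F. Most of the radial glia-like counts came from the cycling cluster 42, with 22 UMIs in 22 F/F nuclei and 23 UMIs in 41 NCKO nuclei, 243 and 150 CPM, where Top2a, a topoisomerase of dividing cells, was at 885 and 756 CPM. The large radial glia-like cluster 12 had 1 and 5 UMIs of Nde1 and 11.1 and 13.8 CPM of Top2a. In the intermediate progenitor class 2 of 9 UMIs in F/F and 16 of 23 in NCKO lay in its cycling cluster 40 (18.5 and 104 CPM). A cycling cluster left unnamed, number 43, had 124 and 125 CPM of Nde1.

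Ndel1, the paralog known from postmitotic neurons, was present in every class. It was at 108 CPM (79 to 145) and 72.6 CPM (55.4 to 93.5) in radial glia-like nuclei, 62.8 and 60.0 CPM in the intermediate progenitor class, and 59.2 and 46.3 CPM in migrating nuclei. Layered classes lay between 44.2 and 55.0 CPM. The ratio of the migrating to the radial glia-like class was 0.547 (0.384 to 0.79) and 0.637 (0.456 to 0.896), so the span of Ndel1 between these classes was small beside that of Nde1.

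Of the 3 tubulin genes, Tubb3, the class III beta-tubulin used as a marker of young neurons, had the widest range. It stood at 123 CPM (91.4 to 161) in F/F and 167 CPM (140 to 197) in NCKO in radial glia-like nuclei, at 172 CPM (142 to 207) and 316 CPM (273 to 364) in the intermediate progenitor class, and at 314 CPM (289 to 339) and 391 CPM (364 to 419) in the migrating class. The migrating level was 2.55-fold (1.92 to 3.47) and 2.34-fold (1.95 to 2.82) above the radial glia-like one. It was highest in upper-layer-like nuclei, at 336 and 440 CPM, with layer 5 within counting error of it, and lower in layer 6, at 263 and 332 CPM. From intermediate progenitor to migrating nuclei the step was 1.82-fold (1.49 to 2.24) in F/F and 1.24-fold (1.06 to 1.45) in NCKO; the difference between these steps was not tested.

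Tuba1a, the main alpha-tubulin gene of embryonic neurons, and Tubb2b, a beta-tubulin gene of progenitors and neurons, spanned less. For Tuba1a the levels were 258 CPM (211 to 311) and 294 CPM (258 to 334) in radial glia-like nuclei, 320 and 421 CPM in migrating nuclei, and 351 and 429 CPM in upper-layer nuclei. Tubb2b had 176 CPM (138 to 221) and 220 CPM (189 to 255) in radial glia-like nuclei, had 247 CPM (226 to 270) and 300 CPM (276 to 324) in migrating nuclei and, within counting error of that, 244 and 283 CPM in upper-layer nuclei, and was lower in layer 5, at 186 and 242 CPM. Highest and lowest classes differed 1.36- and 1.46-fold for Tuba1a and 1.41- and 1.36-fold for Tubb2b, against 2.73- and 2.63-fold for Tubb3. Tuba1a carries a limit of its own. In its last 500 bases it shares a run of 281 identical bases with Tuba1b, and Gm49450, on the same strand, overlaps 3715 of its bases, so some of its molecules can be credited elsewhere or lost. Tuba1b had 12.7 and 16.6 CPM and Gm49450 29.6 and 23.1 CPM over all nuclei. For Tubb3 and Tubb2b the longest shared runs were 47 and 11 bases.

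The Rnd genes were counted in few molecules. Rnd2, which acts when multipolar cells turn bipolar and lies downstream of the proneural factor Neurog2, had 112 UMIs in F/F and 126 in NCKO over all nuclei. Radial glia-like nuclei held 0 UMIs in F/F, which allows up to 7.22 CPM, and 3 in NCKO. The intermediate progenitor class had 9 and 8 UMIs (13.5 CPM, 6.16 to 25.6, and 13.0 CPM, 5.6 to 25.6), and the migrating class 16 and 28 UMIs (8.17 CPM, 4.67 to 13.3, and 13.6 CPM, 9.06 to 19.7). The upper-layer class was at 0.396 (0.197 to 0.812) and 0.217 (0.121 to 0.386) of the migrating level, with 21 and 25 UMIs. Among migrating clusters, number 18 had 31.4 and 35.7 CPM of Rnd2 from 7 and 12 UMIs, and cluster 1 had 4.96 and 9.8 CPM from 7 and 14.

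Rnd3, known for cell rounding and for a separate role in migration, was highest in the intermediate progenitor class, at 56.9 CPM (40.2 to 78.0; 38 UMIs) and 69.7 CPM (50.5 to 93.9; 43 UMIs). That was 1.97-fold (1.01 to 4.14) and 2.4-fold (1.42 to 4.13) above radial glia-like nuclei. The migrating class had 10.7 CPM (6.64 to 16.4) and 20 CPM (14.3 to 27.1), which is 0.189 (0.105 to 0.33) and 0.286 (0.182 to 0.45) of the intermediate progenitor level. Cluster 40, the cycling intermediate progenitor-like cluster, held 148 and 143 CPM of Rnd3, above the 48.5 and 45.7 CPM of cluster 38. In layer 6 it was higher again, at 24.6 and 29.3 CPM, and inhibitory classes had more than the layered excitatory ones, with 57.2 and 47.0 CPM in the MGE class and 52.5 and 59.5 CPM in the striatal or lateral eminence (LGE) class. For Rnd2 the same ratio of migrating over intermediate progenitor-like nuclei had an interval that included 1 in both libraries (0.607, 0.252 to 1.56, and 1.05, 0.467 to 2.67).

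The depth of the nuclei differed between classes, from medians of 2409 and 2197 UMIs in radial glia-like nuclei to 7201 and 5628.5 in layer 5-like nuclei. Shares of nuclei with a UMI were therefore taken after thinning every nucleus to 1000 UMIs. Free RNA can put UMIs into nuclei that do not make a gene, so the share in endothelial-, mural-, meningeal- and microglia-like nuclei (57 and 171 after thinning) serves as the level outside the neural lineage. Dcx was found in 3.36% (1.1 to 7.66) and 3.79% (1.97 to 6.52) of radial glia-like nuclei, beside 3.51% (0.428 to 12.1) and 4.09% (1.66 to 8.25) outside the neural lineage. These shares are alike, and so are the levels of 33.7 and 69.0 CPM in radial glia-like nuclei and of 39.1 and 58.8 CPM outside. For Dcx the radial glia-like class as a whole was thus not set apart from the level outside. That level rests on few nuclei in F/F, and the NCKO counts lay in part in a single cluster, as given below. The Dcx share was 30.1% (26.6 to 33.8) and 32.5% (29.1 to 35.9) in the migrating class. Without thinning, Dcx was found in 7.28% and 10.6% of radial glia-like, 62.3% and 59.4% of migrating and 10.5% and 12.8% of non-neural nuclei, whose medians were 2515 and 2603.5 UMIs. Dclk1 differed: 58.4% and 62.8% of radial glia-like nuclei had a UMI against 12.3% and 14.6% outside (unthinned 82.8% and 85.7% against 22.8% and 28.5%). Tubb3 in radial glia-like nuclei, at 9.4% and 15.5%, lay near the 12.3% and 11.7% outside, and Tuba1a and Pafah1b1 were found outside the neural lineage in shares like those of the lineage itself (29.8% and 21.1%, 38.6% and 36.3%); both genes are broadly expressed, so these nuclei are no background for them. For Nde1 the radial glia-like shares of 3.36% and 2.84% did not exceed the 3.51% and 5.26% outside. Those nuclei are no background for Nde1 either. Mural-like ones had 67.6 and 53.7 CPM of it (4 and 4 UMIs), and microglia-like ones 17.1 and 106 CPM (1 and 10 UMIs). The shares at this depth therefore give no background to set Nde1 against, and its pattern rests on the levels by class and cluster. Upper-layer-like nuclei had 0.462 and 0.592 CPM of Nde1, beside 60.2 and 43.6 CPM in radial glia-like nuclei. The MGE class held 0 UMIs of it in F/F, which allows up to 1.25 CPM, and 4 in NCKO (1.03 CPM). Rnd3 was found in 6.69% and 7.69% of intermediate progenitor-like nuclei and in 1.09% and 1.45% of migrating ones. The 3.51% and 4.09% outside are no background for Rnd3, since mural-like nuclei of that pool had 118 and 242 CPM of it, while microglia-like nuclei held 0 UMIs.

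**Figure D3:**
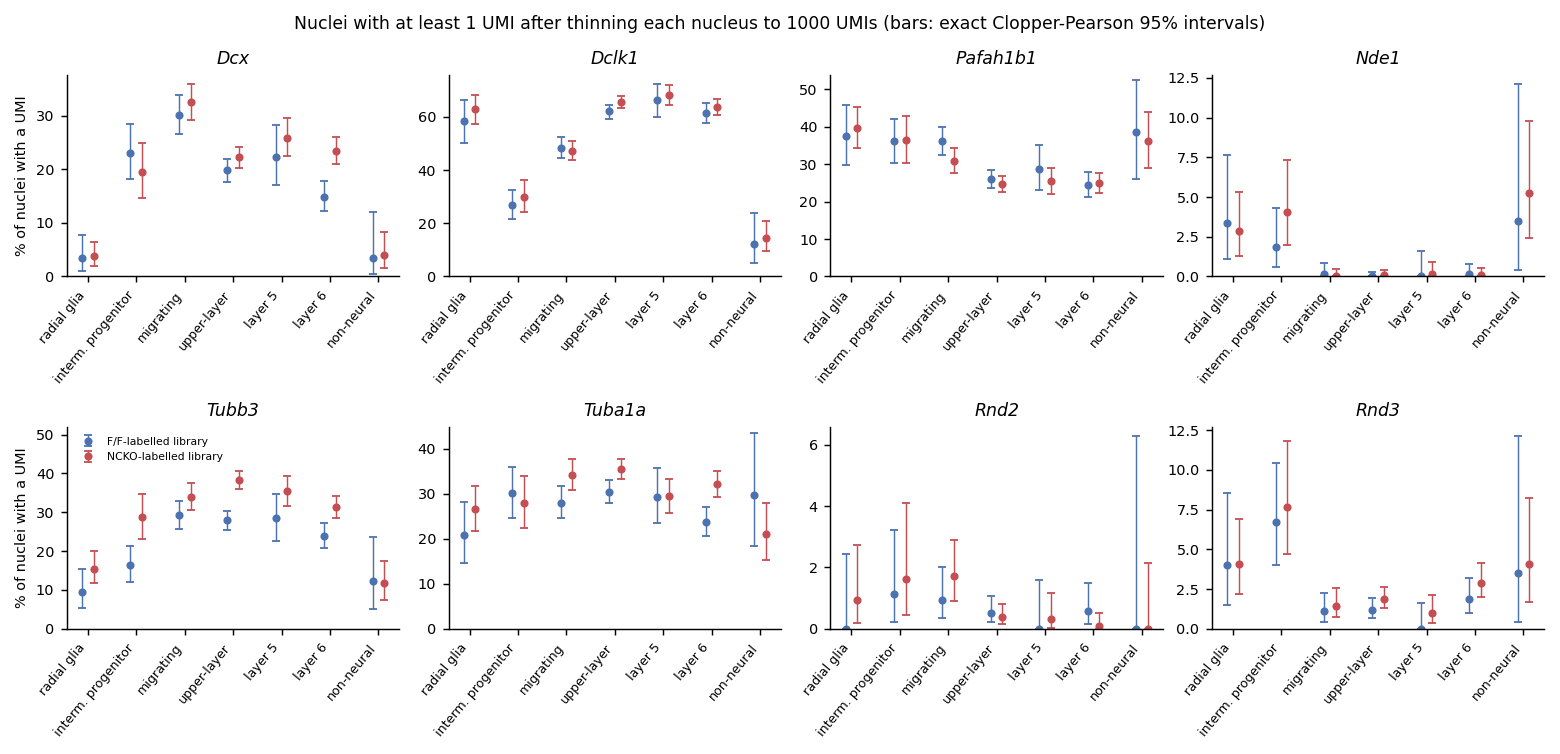
Share of nuclei with at least 1 UMI (percent, linear axis from 0) after thinning each nucleus to 1000 UMIs, for 8 of the 10 genes in the 6 classes and in nuclei outside the neural lineage, blue for F/F and red for NCKO, with exact Clopper-Pearson 95% intervals. Dcx in radial glia-like nuclei sits at the non-neural level (3.36% and 3.79% beside 3.51% and 4.09%), while Dclk1 there is at 58.4% and 62.8%.

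Between the libraries, the clearest difference among the 10 genes was that all 3 tubulin genes were higher in NCKO. Over all nuclei Tubb3 was at 288 CPM (282 to 295) in F/F and 358 CPM (353 to 364) in NCKO, 1.24-fold (1.21 to 1.28). Tuba1a was at 305 and 381 CPM, 1.25-fold (1.22 to 1.28), and Tubb2b at 211 and 256 CPM, 1.21-fold (1.17 to 1.25). In each of 10 compared classes, the 6 above with the MGE, CGE, striatal or LGE and oligodendrocyte precursor classes, the ratio of every tubulin member was above 1. Its interval lay above 1 in 9 classes for Tubb3 (1.14 to 1.84), 8 for Tuba1a (1.03 to 1.6) and 7 for Tubb2b (1.09 to 1.38). The intervals do not contain the spread between embryos, which these libraries cannot give.

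The Tubb3 difference was widest in intermediate progenitor-like nuclei, with 115 UMIs in F/F and 195 in NCKO and a ratio of 1.84 (1.45 to 2.33). All 4 clusters of that class had it, at 2.04 (1.27 to 3.38), 1.62 (0.937 to 2.88), 2.19 (1.47 to 3.26) and 2.02 (1.08 to 3.85). Beside it, the 13 radial glia markers summed to 2730 CPM in F/F and 3850 in NCKO in this class (ratio 1.41, 1.33 to 1.5; 12 of 13 higher), and the 8 migrating neuron markers to 5340 and 4810 CPM. The cell cycle markers Top2a, at 121 and 240 CPM (1.98, 1.5 to 2.63), and Mki67, at 31.4 and 77.8 CPM (2.48, 1.45 to 4.35), were higher in NCKO in this class too. Their part in the Tubb3 difference was not tested. In the migrating, upper-layer, layer 5 and layer 6 classes the Tubb3 ratio was 1.25 (1.12 to 1.39), 1.31 (1.24 to 1.38), 1.26 and 1.26. Over clusters of the 6 classes (minimum 20 nuclei per library and 50 UMIs), Tubb3 was higher in NCKO in 17 of 17, Tuba1a in 16 of 17 and Tubb2b in 16 of 17. The cluster with the most nuclei of the upper-layer class was not the same in the 2 libraries, cluster 2 in F/F (609 and 340 nuclei) and cluster 5 in NCKO (201 and 635). At equal depth 27.9% (25.5 to 30.4) of upper-layer-like nuclei in F/F and 38.2% (35.9 to 40.5) in NCKO had a Tubb3 UMI (73.9% and 82.0% without thinning).

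**Figure D4:**
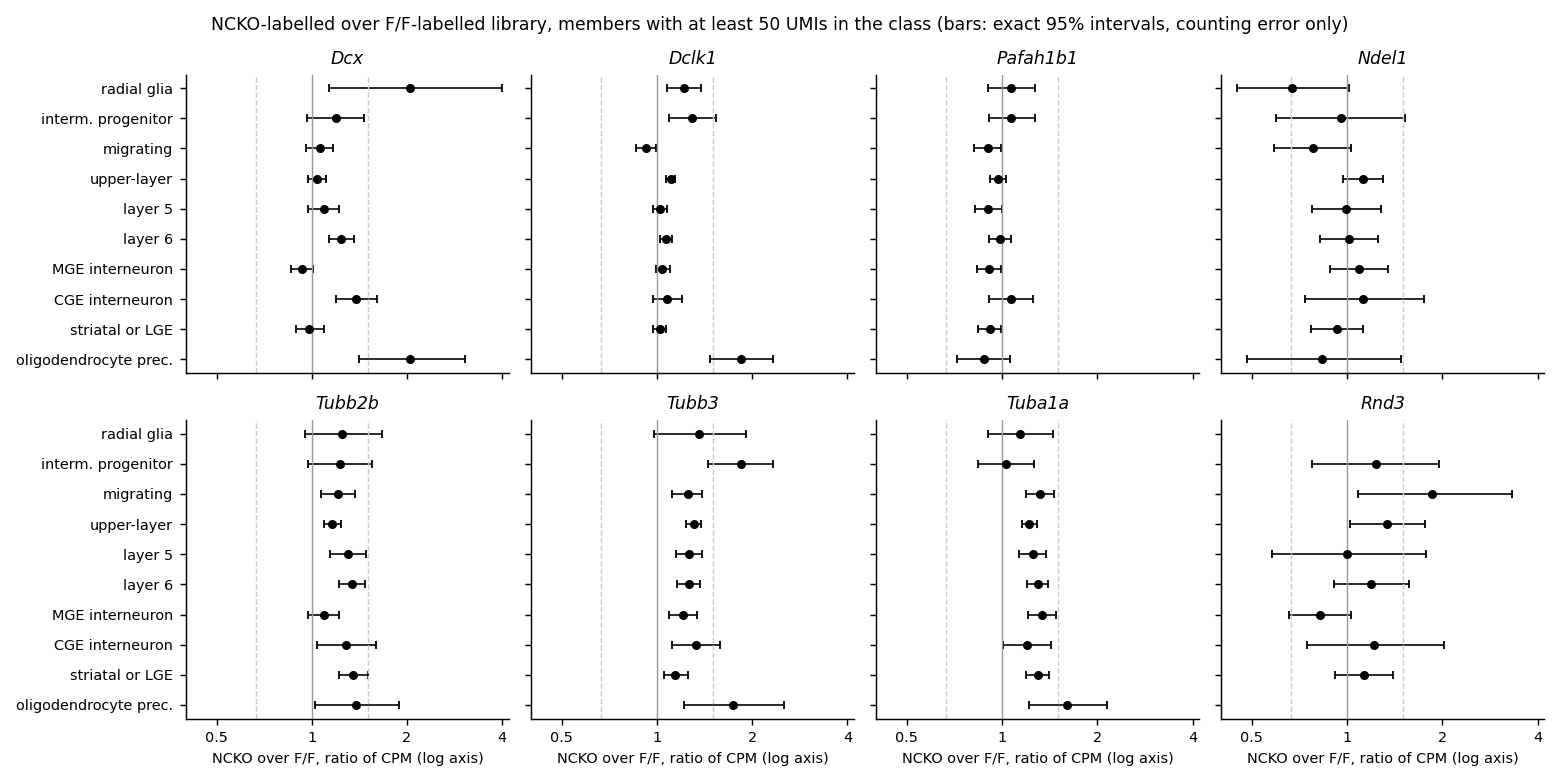
Ratio of the level in NCKO over F/F (log axis) for the 8 genes with at least 50 UMIs in most classes, in the 10 compared classes, with exact 95% intervals for counting error; the solid line is 1 and the dashed lines are 1.5-fold. Tubb2b, Tubb3 and Tuba1a lie above 1 in all 10 classes, while Pafah1b1 ranges from 0.874 to 1.07.

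Ribosomal protein and mitochondrial transcripts were higher in NCKO too. The 83 ribosomal protein genes summed to 1.16 times (1.15 to 1.17) and the 13 mitochondrial transcripts to 1.23 times (1.22 to 1.24) their F/F level over all nuclei, beside 1.24 (1.22 to 1.26) for the 3 tubulin members and 1.31 (1.27 to 1.34) for the other 11 listed tubulins. By class, ribosomal sums had ratios of 1.01 to 1.3, mitochondrial sums 1.01 to 1.75 and the tubulin members 1.22 to 1.56. Genes under 10 kb, Tuba1a and Tubb2b among them, had median log2 ratios of 0.05 to 0.18 in the 10 classes. Genes of 10 to 100 kb, with Tubb3 at 10.6 kb among them, had medians of -0.1 to 0.06, and genes over 100 kb of -0.05 to 0.04. In nuclei outside the neural lineage the tubulin members were at 508 and 612 CPM, a ratio of 1.2 (0.952 to 1.54), and the other tubulins at 296 and 285 CPM, a ratio of 0.962 (0.7 to 1.34). There the ribosomal sum gave 1.33 (1.25 to 1.41) and the mitochondrial sum 2.42 (2.14 to 2.74). This pool was made up differently in the libraries. F/F had 3 endothelial-, 18 mural-, 15 meningeal- and 21 microglia-like nuclei, and NCKO had 51, 31, 49 and 41. The part of that make-up in the ratios of the pool was not tested. The part of the ribosomal, mitochondrial and gene-length shifts in the tubulin difference was not tested either. Gm49450, the gene that overlaps Tuba1a, went the other way over all nuclei, with a ratio of 0.78 (0.709 to 0.858). It did not do so in every class. The ratio was 0.695 (0.499 to 0.962) in migrating and 0.73 (0.595 to 0.895) in upper-layer nuclei. It was 1.08 (0.381 to 3.08) in the intermediate progenitor class and 1.11 (0.769 to 1.64) in layer 5.

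**Figure D5:**
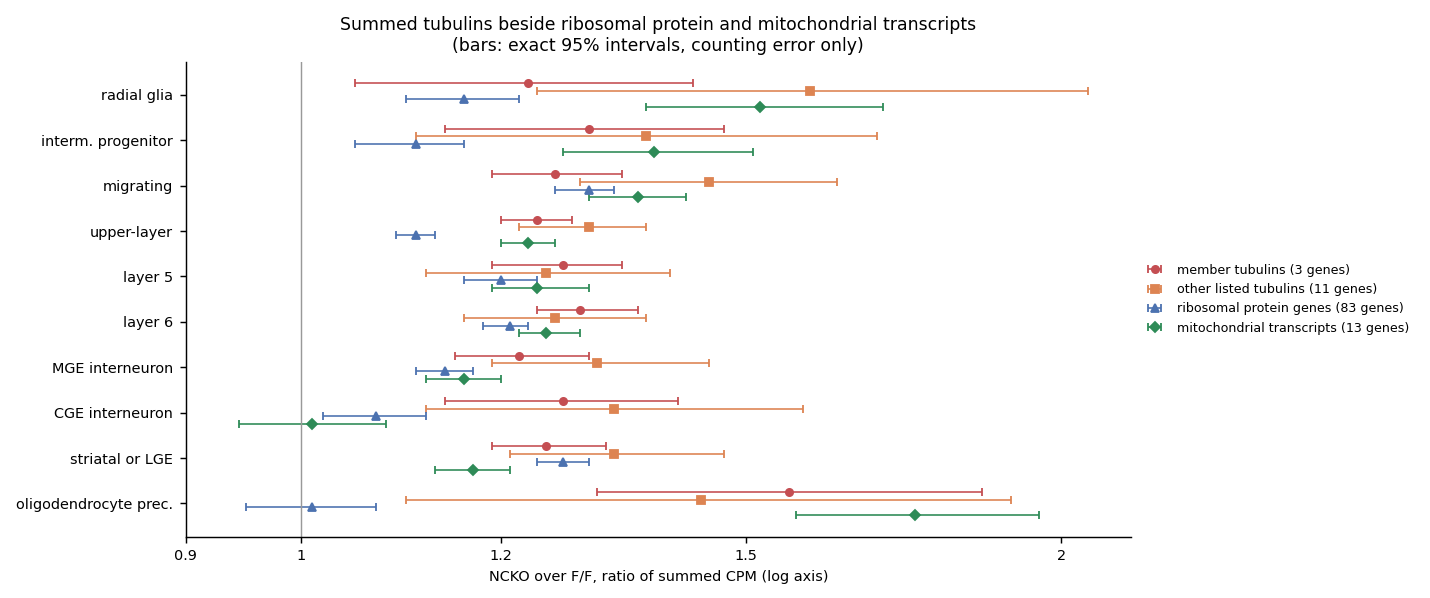
Ratio of summed levels in NCKO over F/F (log axis) for the 3 tubulin members, 11 other listed tubulins, 83 ribosomal protein genes and 13 mitochondrial transcripts in the 10 compared classes, with exact 95% intervals for counting error. All 40 points lie above 1, the tubulin members between 1.22 and 1.56 and the ribosomal sums between 1.01 and 1.3.

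The doublecortins differed less between the libraries. Over all nuclei Dcx had a ratio of 1.07 (1.03 to 1.1) and Dclk1 of 1.07 (1.05 to 1.08). In migrating nuclei, where Dcx is highest, its ratio was 1.06 (0.961 to 1.17), and in upper-layer nuclei 1.04 (0.97 to 1.11). It was 1.24 (1.13 to 1.36) in layer 6, 1.38 (1.19 to 1.61) in the CGE class and 2.05 (1.13 to 3.98) in radial glia-like nuclei, where 29 of the 57 NCKO UMIs came from cluster 23 and none of the F/F ones. The 8 migrating neuron markers summed to 1320 and 1580 CPM in radial glia-like nuclei (1.2-fold, 1.09 to 1.33, with 5 of 8 higher and Nhlh1 at 0 in both). In the CGE class they summed to 1320 and 2130 CPM (1.61-fold, 1.49 to 1.74, with 6 of 8 higher). The MGE class gave 1.66-fold (1.6 to 1.73, with 3 of 8 higher) beside a Dcx ratio of 0.931 (0.861 to 1.01). Their part in the Dcx values was not tested. After thinning to 1000 UMIs the log2 ratio in radial glia-like nuclei was -0.08 in place of 0.94, so no difference was detectable at that depth. For Dclk1 the ratio was 1.22 (1.08 to 1.38) in radial glia-like nuclei, 1.29 (1.09 to 1.54) in the intermediate progenitor class and 1.11 (1.07 to 1.14) in upper-layer nuclei, but 0.924 (0.86 to 0.994) in migrating nuclei.

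Pafah1b1 was close to equal, at 351 CPM (344 to 358) in F/F and 334 CPM (329 to 340) in NCKO over all nuclei, a ratio of 0.953 (0.928 to 0.978). It was below 1 in 7 of 10 classes, with the interval below 1 in 3 of them: 0.902 (0.818 to 0.995) in migrating nuclei, 0.908 (0.833 to 0.991) in the MGE class and 0.913 (0.84 to 0.992) in the striatal or LGE class. For Ndel1 every one of the 10 intervals included 1, from 0.67 (0.448 to 1.01) in radial glia-like nuclei to 1.12 (0.972 to 1.3) in upper-layer nuclei. Nde1 reached 50 UMIs in radial glia-like nuclei only, with a ratio of 0.724 (0.423 to 1.26). Its intermediate progenitor counts of 9 and 23 UMIs gave 2.77 (1.23 to 6.8), and Top2a in that class gave 1.98 (1.5 to 2.63). The part of cycling nuclei in this value was not tested.

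Rnd3 was higher in NCKO in migrating nuclei, with 21 and 41 UMIs and a ratio of 1.86 (1.08 to 3.32), and in upper-layer nuclei, with 88 and 153 UMIs and a ratio of 1.34 (1.02 to 1.76). In cluster 20 of the migrating class, led by Fam163a, it had 2 and 8 UMIs, and without that cluster 0 members passed 1.5-fold in the migrating class, against 1 with it (log2 ratio of CPM + 5). In layer 5 the ratio was 1.0 (0.58 to 1.78) and in the MGE class 0.821 (0.654 to 1.03). Rnd2 was lower in NCKO over all nuclei, at 4.19 CPM (3.45 to 5.04) and 3.04 CPM (2.53 to 3.62), a ratio of 0.725 (0.558 to 0.944). Its counts per class were small. The MGE class had 19 and 11 UMIs (0.356, 0.153 to 0.787), while the migrating class had 16 and 28 (1.67, 0.873 to 3.3).

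Counted by a fixed size, few of the 10 genes stood out. A gene was counted as different when the log2 ratio of CPM + 5 passed 1.5-fold in a class where it had at least 50 UMIs over both libraries, and 8 of the 10 genes were measurable in each of the 6 classes. In radial glia-like nuclei 1 was higher in NCKO, Dcx, and 0 were lower, where 9.39% of 4986 genes were higher and 5.78% lower. The intermediate progenitor class had 1 higher, Tubb3, and 0 lower, beside 7.55% and 4.99% of all genes, and the migrating class 1 higher, Rnd3, and 0 lower, beside 4.51% and 4.75%. In the upper-layer class 0 passed, beside 1.79% higher and 2.77% lower. Likewise 0 passed in layer 5 (3.09% higher and 2.66% lower), layer 6 (2.51% and 2.27%), the MGE class (2.78% and 2.59%), the CGE class (5.52% and 4.36%) and the striatal or LGE class (2.66% and 2.23%). A single gene of 8 is near these background shares. The median log2 ratio of the measurable members was 0.24, 0.26, 0.18, 0.18, 0.08 and 0.26 in the 6 classes in lineage order, beside 0.02, 0.03, 0.05, 0.01, 0.03 and 0.05 over all measured genes.

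The oligodendrocyte precursor-like class, with 118 and 232 nuclei, was the exception, with 4 of 7 measurable members higher in NCKO and 0 lower, beside 9.45% of all measured genes higher and 9.42% lower. The 4 were Dcx (34 and 163 UMIs, ratio 2.05, 1.41 to 3.05), Dclk1 (1.85, 1.47 to 2.33), Tubb3 (1.74, 1.22 to 2.52) and Tuba1a (1.6, 1.22 to 2.14). The 26 markers of upper-layer, layer 5 and layer 6 neurons summed to 5030 CPM in F/F and 6690 CPM in NCKO in these nuclei, a ratio of 1.33 (1.26 to 1.4), with 18 of 26 higher and Trhr at 0 in both. The 8 migrating neuron markers summed to 822 and 825 CPM (1.0, 0.874 to 1.16; 4 of 8 higher), with Neurod1 and Nhlh1 at 0 in both. The part of neuronal RNA in the difference was not tested.

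The 64 other listed cytoskeleton genes, grouped by family, gave few differences of that size in most classes. The oligodendrocyte precursor class had 7 of 39 measurable higher and 1 lower, beside 9.45% and 9.42% of all genes. Radial glia-like nuclei had 3 of 39 higher and 2 lower, and the intermediate progenitor class 3 of 41 higher and 0 lower. In layer 5, 2 of 55 were higher, and in layer 6, 1 of 57, with 0 lower in each. Shares over all genes in these classes are given above. In the upper-layer class 59 were measurable and none passed the limit in either direction. There 46 had a ratio above 1 and 13 below, where 47.4% of all 12360 measured genes were below. The median log2 ratio was 0.14 against 0.01 over all genes. In the migrating class 49 were measurable, 2 were higher and 1 was lower. The higher ones were tubulins again, Tubb5 with 275 and 464 UMIs (140 and 226 CPM, ratio 1.61, 1.38 to 1.88) and Tuba1b with 17 and 44 UMIs (2.47, 1.38 to 4.61). The lower one was Dync1i1, an intermediate chain through which dynein binds its cargo and Ndel1, with 355 and 239 UMIs, 181 and 116 CPM and a ratio of 0.642 (0.543 to 0.759). Dync1i1 was not lower throughout: its ratio was 0.815 (0.786 to 0.845) in upper-layer nuclei, 1.07 (1.04 to 1.1) in layer 6, 1.6 (1.39 to 1.84) in the MGE class and 1.96 (1.3 to 3.03) in the CGE class. By family, members included, the 10 measurable tubulins had a median log2 ratio of 0.29 in the upper-layer class with 9 above 0. The 17 Lis1 and dynein genes had 0.03 with 10 above 0. The 15 microtubule-associated genes had 0.14 with 14 above 0, and the 8 kinesins 0.04 with 5 above 0. Over all genes of that class 47.4% were below 0.

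The genes whose level across the 10 classes of both libraries (20 points that share libraries and depth) ran most nearly with each member were named from 9664 genes by Pearson's r. For Dcx these were Nsg2 (0.932), Frmd5 (0.928) and Gm14634 (0.923), and for Dclk1 they were Sptbn1 (0.879), Klhl18 (0.868) and Mfsd11 (0.855). Pafah1b1 ran with Med1 (0.959), Pnisr (0.943) and Syt11 (0.942), Nde1 with Cd81 (0.97), Tmbim6 (0.969) and Tcf7l1 (0.967), and Ndel1 with Zfp236 (0.861), Tulp3 (0.847) and Stox2 (0.843). Among the tubulins, Tubb2b ran with Stmn1 (0.913), Ctxn1 (0.906) and Tubb5 (0.869), and Tuba1a with Tubb2b (0.853), Crip2 (0.849) and Tubb3 (0.842). Tubb3 itself ran with Kidins220 (0.924), Mcf2l (0.916) and Prmt2 (0.914). For Rnd2 the 3 were Tmem131l (0.885), Ranbp10 (0.882) and Edc3 (0.879), and for Rnd3 they were 6230400D17Rik (0.851), Gad2 (0.836) and Thsd7b (0.821). Within a library, over 10 classes, r between Tubb3 and Tuba1a was 0.82 in F/F and 0.83 in NCKO, and between Nde1 and Tubb3 it was -0.88 and -0.75. These are descriptions of 20 points or of 10, with no test.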

How the data were processed

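The deposited values are raw UMI counts, 1 whole number for each gene in each barcode. Cell Ranger 6.1.0 stands in the file headers, and the submitters' processing notes name mm10 and, without a role, Seurat. No source used here says whether intronic reads were counted or how strand was treated. Filters took out barcodes with fewer than 500 detected genes (10 in F/F, 19 in NCKO) and those above 5% mitochondrial RNA (1 and 0), and the 336 and 924 highest doublet scores (0.8% per 1000 barcodes, 2 simulated doublets per nucleus) were removed.

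Nuclei of both libraries were clustered together on 2000 variable genes, without the listed cytoskeleton and cell cycle genes, with 30 components, 20 neighbours and Leiden resolution 1 (leidenalg 0.10.2, scikit-learn 1.9.0, scipy 1.17.1, Python 3.11.15). Clusters were named from marker lists by a score of at least 0.5. The score was the mean log2 ratio of the markers in a cluster over the other clusters. At least 3 markers had to be raised 1.5-fold, with a lead of 0.1 over the next class. A name could also be withheld because of the leading genes of a cluster or low depth. The naming rule was settled after clusters had been seen, and differences in names may come from it. A class was compared where both libraries gave it 100 nuclei or more, and 16 clusters stayed unnamed. The 10 genes and all lists were chosen with earlier results of these data known, so counts and medians are given without set tests.

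Ratios carry exact conditional binomial 95% intervals and shares Clopper-Pearson ones, for counting error only. Named besides the 10 genes are the 3 genes most like each member (at least 500 UMIs) and the listed genes past 1.5-fold in upper-layer or migrating nuclei; Tubb5, Dync1i1, Gm49450, Top2a, Mki67 and marker sums in other classes, and the clusters singled out, were chosen after their values were seen. Of 33938 gene identifiers, 32241, the 10 genes among them, were found in GENCODE M21. The ratio script was run on Poisson counts simulated from pooled class profiles. That checks the code only and does not cover the spread between nuclei or embryos. Alternatives tried were other resolutions, clustering with the genes kept in, no doublet removal, all barcodes, thinning, CPM + 1 and CPM + 20, minimums of 20 and 200 UMIs, centring on the median gene, mean CPM over nuclei and cluster weights of F/F.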

Additional observations from a re-analysis of the deposited data

Results flagged for a closer look

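Dclk1 was picked out because its ratio of NCKO over F/F lay on opposite sides of 1, outside counting error, in different classes. In migrating nuclei it was 0.924, while it was 1.22 in radial glia-like, 1.29 in intermediate progenitor-like, 1.11 in upper-layer-like, 1.07 in layer 6-like and 1.85 in oligodendrocyte precursor-like nuclei. The difference between the classes was not tested, since each label has 1 library. With a Leiden resolution of 0.5 the log2 ratio in the migrating class was 0.08 in place of -0.11, so the side of 1 changed with the clustering.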

How the results depend on the processing

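Of 670 log2 ratios of members under the alternatives, 651 stayed within the counting interval of the reported value. Among members past 1.5-fold, 1 turned its sign: Dcx in radial glia-like nuclei was -0.08 after thinning to 1000 UMIs (0.94 as reported). Ratios near 1 also crossed it, Dcx in the intermediate progenitor class (-0.04 after thinning) and Ndel1 in the migrating class (0.12 with all barcodes) among them. Tubb3 stayed above 0 under every alternative in the upper-layer (0.36 to 0.55), migrating (0.25 to 0.43), intermediate progenitor (0.64 to 1.0), layer 5 (0.27 to 0.46) and layer 6 (0.26 to 0.49) classes. Tuba1a did so in the upper-layer (0.22 to 0.36), migrating (0.25 to 0.7) and layer 6 (0.32 to 0.46) classes, but was -0.03 in layer 5 after thinning. In the intermediate progenitor class Tuba1a was -0.02 after thinning (0.04 as reported) and kept its sign in 9 of 11 alternatives. In radial glia-like nuclei it kept its sign in 10 of 11. Of 360 levels 63 left their counting interval, as did 195 of 240 shares, which depend on depth by construction. Of 158 counts of members past 1.5-fold 24 moved, and the cause was not tested. In radial glia-like nuclei the members lower in NCKO, 0 as reported, were 2 at Leiden resolution 2 and 1 without doublet removal, with mean CPM over nuclei and with cluster weights of F/F; those higher, 1 as reported, were 2 at resolution 2 and after thinning, and 0 at resolution 0.5, without doublet removal, with all barcodes, at a minimum of 200 UMIs and with mean CPM. In the intermediate progenitor class those higher, 1 as reported, were 4 at resolution 2, and 2 at a minimum of 20 UMIs and with cluster weights of F/F. In the migrating class the 1 member higher, Rnd3, became 0 at resolutions 2 and 0.5, after thinning, with CPM + 20, at a minimum of 200 UMIs, with cluster weights of F/F and without the Fam163a cluster, an alternative chosen after seeing the data; it became 2 without doublet removal. After thinning, 1 member was higher in layer 5 and 1 in layer 6, against 0. Listed genes lower, summed over the 6 classes (3 as reported), were 5 at a minimum of 20 UMIs, 1 at 200 and 0 with CPM + 20; those higher (11) were 17, 5, 19 with CPM + 1 and 6 with CPM + 20. Depth limits Nde1 and Rnd2 most, with 93 and 112 UMIs in all F/F nuclei.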
